A study of Mus musculus with 4 samples.

Results

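The genes described here are the CXC chemokines *Cxcl1*, *Cxcl2*, *Cxcl5*, *Cxcl9*, *Cxcl10*, *Cxcl12* and *Cxcl16* and the CX3C chemokine *Cx3cl1*, chosen by symbol. Of 9 symbols in the rule, 8 matched a row among the 31053 genes of the count matrices, and *Cxcl11* was not analysed here. The data are single-cell RNA sequencing counts of mouse pancreatic islets, and the question is which islet cells carried chemokine transcripts after a short cytokine exposure. Islets of adult male C57BL/6 mice (C57BL6/J in the study's methods) were pooled and then divided into 4 samples, so the samples share their donors and no sample stands for a single animal. The untreated sample received no cytokine, the second received IL-1β, the third IFN-γ and the fourth both, in each case for 6 h before the intact islets were dissociated. The IL-1β was the human recombinant protein and the IFN-γ the mouse protein, and no transgene or deletion was carried by any group. Each condition is 1 library, so no difference below has a replicate check and no p-value is given.

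Chemokines are small secreted or membrane-tethered proteins that direct the movement of leukocytes by binding G protein-coupled receptors. *Cxcl1*, *Cxcl2* and *Cxcl5* belong to the subgroup that attracts neutrophils through CXCR2, and they are classical targets of NF-κB downstream of the IL-1 receptor. *Cxcl9* and *Cxcl10* attract activated T cells and natural killer cells through CXCR3 and are classical targets of interferon signaling. *Cxcl12* is a homeostatic ligand of CXCR4. *Cxcl16* and *Cx3cl1* (fractalkine) are made as membrane proteins that can be shed, and their receptors are CXCR6 and CX3CR1.

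In the GENCODE M21 annotation of GRCm38, 5 of the 8 genes lie on chromosome 5. *Cxcl5* (chr5:90759360-90761624), *Cxcl1* (chr5:90891241-90893115) and *Cxcl2* (chr5:90903871-90905938) are on the plus strand, and *Cxcl9* (chr5:92321347-92328079) and *Cxcl10* (chr5:92346638-92348889) are on the minus strand. *Cxcl12* is at chr6:117168535-117181367 on the plus strand, *Cxcl16* at chr11:70453983-70459984 on the minus strand and *Cx3cl1* at chr8:94772009-94782427 on the plus strand. All 8 are annotated as protein coding. The bases just upstream of the start sites of *Cxcl1*, *Cxcl2* and *Cxcl10* are shown because *Cxcl1* and *Cxcl2* moved together across the libraries and *Cxcl10* followed a different course. They come from RefSeq on GRCm38.p6, are written 5′ to 3′ on the strand of the gene and end at the base before the start site. Capitals mark matches to a κB motif (GGG, any 3 bases, TTCC) or an interferon-stimulated response element, ISRE (GAAA, any 2 bases, GAAA), searched on both strands, and overlapping matches run together.

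*Cxcl1*, chr5:90891095-90891244, plus strand: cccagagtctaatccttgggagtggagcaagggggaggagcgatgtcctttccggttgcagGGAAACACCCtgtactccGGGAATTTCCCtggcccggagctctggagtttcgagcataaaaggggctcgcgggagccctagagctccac
*Cxcl2*, chr5:90903749-90903898, plus strand: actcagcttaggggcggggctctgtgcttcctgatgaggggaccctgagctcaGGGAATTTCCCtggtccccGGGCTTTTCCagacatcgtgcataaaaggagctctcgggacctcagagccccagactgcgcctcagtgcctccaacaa
*Cxcl10*, chr5:92348890-92349139, minus strand: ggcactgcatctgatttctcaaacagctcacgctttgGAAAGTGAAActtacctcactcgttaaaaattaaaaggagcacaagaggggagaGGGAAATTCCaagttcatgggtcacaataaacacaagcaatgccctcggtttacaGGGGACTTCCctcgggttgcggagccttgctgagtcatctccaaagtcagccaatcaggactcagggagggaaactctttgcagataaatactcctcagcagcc

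The windows of *Cxcl1* and *Cxcl2* each held 3 κB matches, of which a pair overlapped on opposite strands, and no ISRE match. The window of *Cxcl10* held 1 ISRE match, from position -213 to -204 relative to the start, and 2 κB matches. RefSeq windows of 300 bases were matched for 6 of the 8 genes, and those of *Cxcl9*, *Cxcl12* and *Cx3cl1* held none of these letters. The gamma-activated site letters TTCNNNGAA were also searched and were not found in any of the 6 windows, and TATAAA was found once each in those of *Cxcl9* and *Cx3cl1*. Across 32851 promoter windows of the same length, 5.56% held the κB letters, 3.44% the ISRE letters, 8.30% the gamma-activated site letters and 13.6% TATAAA. A match is a description of the letters and says nothing of whether a factor bound there.

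**Figure D1:**
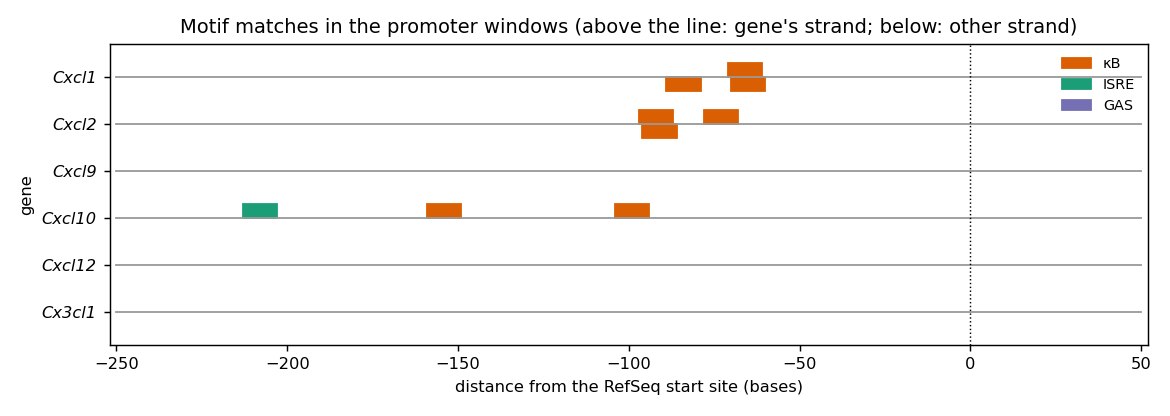
Places of motif matches in the 6 promoter windows, as distance in bases from the RefSeq start site (dotted line), with matches on the strand of the gene drawn above each line and those on the other strand below. *Cxcl1* and *Cxcl2* show 3 κB matches each and *Cxcl10* shows 1 ISRE and 2 κB matches.

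The deposited matrices hold 12571 cell barcodes. Unique molecular identifiers (UMIs, each a counted transcript) totalled 50731370 for untreated islets, 20056630 after IL-1β, 31209339 after IFN-γ and 25716645 after both cytokines. The filter of 200 to 4000 genes and at most 12% mitochondrial UMIs left 7471 cells, 1521, 2018, 2122 and 1810 in the same order. These were 43.6%, 69.3%, 57.4% and 73.0% of the 3486, 2911, 3694 and 2480 barcodes. The untreated library, the base of every ratio to untreated, was therefore trimmed most. The median depth of the kept cells was 15454, 7462.5, 9615 and 11123.5 UMIs, so low genes were seen most easily in untreated cells. Between 0 and 2 barcodes were shared by any pair of libraries. Levels are given as summed UMIs of the gene per 1000000 summed UMIs of the cells (CPM), with exact Poisson 95% intervals, and shares of cells with exact binomial (Clopper-Pearson) 95% intervals. Both cover counting error only. Because each transcript is counted by a tag at its 3′ end, CPM can be compared between genes without a correction for length.

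Cells were named from hormone UMIs and from marker genes of clusters, and each name means only that the cells resemble that type. The clusters were made without the chemokines and several families of cytokine-response genes, such as the *Gbp* genes. Other cytokine-response genes, such as *Nos2*, were not left out. There were 4920 β-like, 848 α-like, 474 δ-like and 168 PP-like cells, and 131 endothelial-like, 104 mesenchymal-like, 129 macrophage-like and 53 ductal-like cells. The non-endocrine classes were small in each library, at 22 to 45 endothelial-like, 20 to 34 mesenchymal-like, 27 to 38 macrophage-like and 6 to 22 ductal-like cells. All 9 endothelial, 10 mesenchymal, 10 macrophage and 9 ductal markers were highest, among the 8 classes, in their own class, as were all 7 β-cell markers, against 3 of 5 for α, 4 of 5 for δ and 3 of 5 for PP. Of the ductal markers, *Tff2* was found in 79.4% of acinar-like cells, which are not among the 8 classes, and in 7.55% of ductal-like cells. Some classes were divided between clusters by library, although the chemokines took no part in the clustering, while all mesenchymal-like and all ductal-like cells lay in 1 cluster each. Most β-like cells lay in a cluster of their own library, namely 1038 of 1128 untreated cells, 893 of 1204 after IL-1β, 964 of 1302 after IFN-γ and 1012 of 1286 after both. α-like cells were divided by exposure to IL-1β, with 74 of 80 untreated and 274 of 285 IFN-γ cells in one cluster and 286 of 318 IL-1β and 158 of 165 combined cells in another, and δ-like cells were divided likewise. Of the PP-like cells, 22 of 30 untreated and 47 of 59 IFN-γ cells shared a cluster, and 24 of 34 IL-1β and 37 of 45 combined cells shared another. Endothelial-like cells were divided by exposure to IFN-γ. All 45 IFN-γ and all 22 combined cells shared a cluster with 3 of 29 untreated and 5 of 35 IL-1β cells, and the others lay apart. Of the macrophage-like cells, 37 of 38 IFN-γ and all 28 combined cells shared a cluster with 1 untreated and 2 IL-1β cells. The mesenchymal-like class also held the 4 Schwann cell markers at a summed 0, 193, 254 and 340 CPM in the same order of samples, and their part in the levels below was not tested. The 10 mesenchymal markers summed to 639, 391, 1159 and 675 CPM in endothelial-like cells, with *Acta2*, *Rgs5*, *Col3a1* and *Rgs5* the most abundant and 2, 4, 1 and 2 of the 10 at 0, against 5365, 7208, 6161 and 2551 CPM in mesenchymal-like cells. The 9 endothelial markers summed to 15143, 12050, 9220 and 7331 CPM in endothelial-like cells and to 790, 367, 119 and 510 CPM in mesenchymal-like cells. The part of either in the levels below was not tested. The 4 neutrophil markers summed to 12.8, 14.4, 21.5 and 37.8 CPM in the macrophage-like cells, with *Csf3r* the most abundant, and the 5 T-cell markers were at 0 UMIs there in all 4 libraries. The neutrophil markers summed to 0, 43.1, 1.25 and 12.2 CPM in β-like and 0, 83.4, 0 and 0 CPM in ductal-like cells. The ductal marker *Spp1* was at 2324 CPM untreated and 8730 CPM after IL-1β in α-like cells, and at 2628 and 5894 CPM in mesenchymal-like cells. It was at 21937 and 13557 CPM in ductal-like and 361 and 24.8 CPM in endothelial-like cells. The part of these in the levels below was not tested.

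After both cytokines every class carried several of these chemokines, and the mesenchymal-like cells held the highest levels of *Cxcl1*, *Cxcl2*, *Cxcl9* and *Cxcl10*. A gene was counted as higher when its CPM was at least 2-fold that of untreated cells of the same class, with at least 20 UMIs over both libraries, and a count of 0 was set to a floor of 3 UMIs. Genes with fewer UMIs were not tested and are not thereby unchanged, and the percentages of all genes are over those tested. Of the 8 members, 6 were tested in β-like cells after IL-1β, 2 in endothelial-like cells after IL-1β and 1 in PP-like cells after IFN-γ. In β-like cells, 5 of the 8 genes were higher after IL-1β (*Cxcl1*, *Cxcl2*, *Cxcl5*, *Cxcl10* and *Cxcl16*), where 17.6% of all genes tested were. After IFN-γ 2 were higher (*Cxcl9* and *Cxcl10*), against 6.61% of all genes, and after both cytokines 6 were (*Cxcl1*, *Cxcl2*, *Cxcl9*, *Cxcl10*, *Cxcl16* and *Cx3cl1*), against 11.8%. The median gene of that class was itself shifted by 0.36 on the log2 scale after IL-1β and by 0.31 after IFN-γ. That of PP-like cells was shifted by 0.34 after IL-1β, and in the other comparisons with untreated cells the shift was between -0.20 and 0.14. In α-like cells 5 genes were higher after IL-1β, 2 after IFN-γ and 6 after both, against 9.29%, 6.51% and 9.83% of genes. There *Cxcl10* was past the limit for lower genes after IL-1β, against 9.49% of genes, but all 51 of its untreated UMIs were in 1 cell and without that cell it was higher after IL-1β. The count for α-like cells after IFN-γ included *Cxcl1*, of whose 28 UMIs 27 were in 1 cell, and that for β-like cells after IFN-γ included *Cxcl9*, with 15 of 26 UMIs in 1 cell. Both genes had too few UMIs for a call there after thinning, and also without that cell. In δ-like cells 3, 1 and 6 genes were higher, against 10.5%, 5.69% and 12.2%, and in PP-like cells 3, 1 and 4 were, against 18.3%, 8.7% and 13.6%. *Cxcl10* was the gene past the limit after IFN-γ in both of these classes, but in δ-like cells 29 of its 46 UMIs were in 1 cell, and it had too few UMIs for a call after thinning or without that cell. *Cxcl16* and *Cx3cl1* in δ-like cells after both were likewise too few after thinning and without their top cells, and so were, after thinning, *Cx3cl1* in α-like cells after either cytokine alone and *Cxcl16* in PP-like cells after both, and, without its top cell, *Cxcl10* in PP-like cells after IL-1β. With cells named one by one the δ-like *Cx3cl1* ratio was below 2-fold, at 0.92 on the log2 scale.

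Counts for the non-endocrine classes follow, and no difference between classes or cytokines was tested. In endothelial-like cells 2 of the 8 genes were higher after IL-1β (*Cxcl1* and *Cxcl16*), 4 after IFN-γ (*Cxcl9*, *Cxcl10*, *Cxcl16* and *Cx3cl1*) and 7 after both, against 5.99%, 9.82% and 10% of genes. With a mitochondrial limit of 20%, and with clustering on all variable genes, *Cxcl1* after IL-1β and *Cxcl2* and *Cxcl5* after both had too few UMIs for a call in this class, and after thinning so did *Cxcl16* after either cytokine alone. In mesenchymal-like cells 4, 6 and 6 were higher, against 7.8%, 8.79% and 11.1%, but after IFN-γ *Cxcl2* (20 UMIs) and *Cxcl16* (23 UMIs) were too few for a call without the cell with most UMIs, after thinning and with cells named one by one from their markers. In macrophage-like cells 2 were higher after IL-1β (*Cxcl1* and *Cxcl2*), 2 after IFN-γ (*Cxcl9* and *Cxcl10*) and 3 after both (*Cxcl9*, *Cxcl10* and *Cxcl16*), against 6.17%, 10.3% and 9.4%. There *Cxcl2* was past the limit for lower genes after both, against 6.63% of genes. That rests on 6 against 17 UMIs, a ratio of 0.416 (0.134 to 1.11) whose interval includes 1, and 10 of the 17 untreated UMIs were in 1 cell. Of the 23 *Cxcl1* UMIs in macrophage-like cells after IL-1β, 16 were in 1 cell. In ductal-like cells 3, 3 and 6 were higher, against 9.34%, 13.2% and 12.2%, and without the cell with most UMIs of the gene *Cxcl5* and *Cxcl9* after IFN-γ and *Cxcl1* and *Cxcl9* after both had too few UMIs for a call. The ductal-like call of *Cxcl16* after both (1.11 on the log2 scale) was lost with no upper limit on genes (0.77), after thinning (0.42) and with cells named one by one (0.10). *Cxcl12* was not counted as higher in any class because it never reached 20 UMIs in a comparison of a treated with the untreated library.

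**Figure D2:**
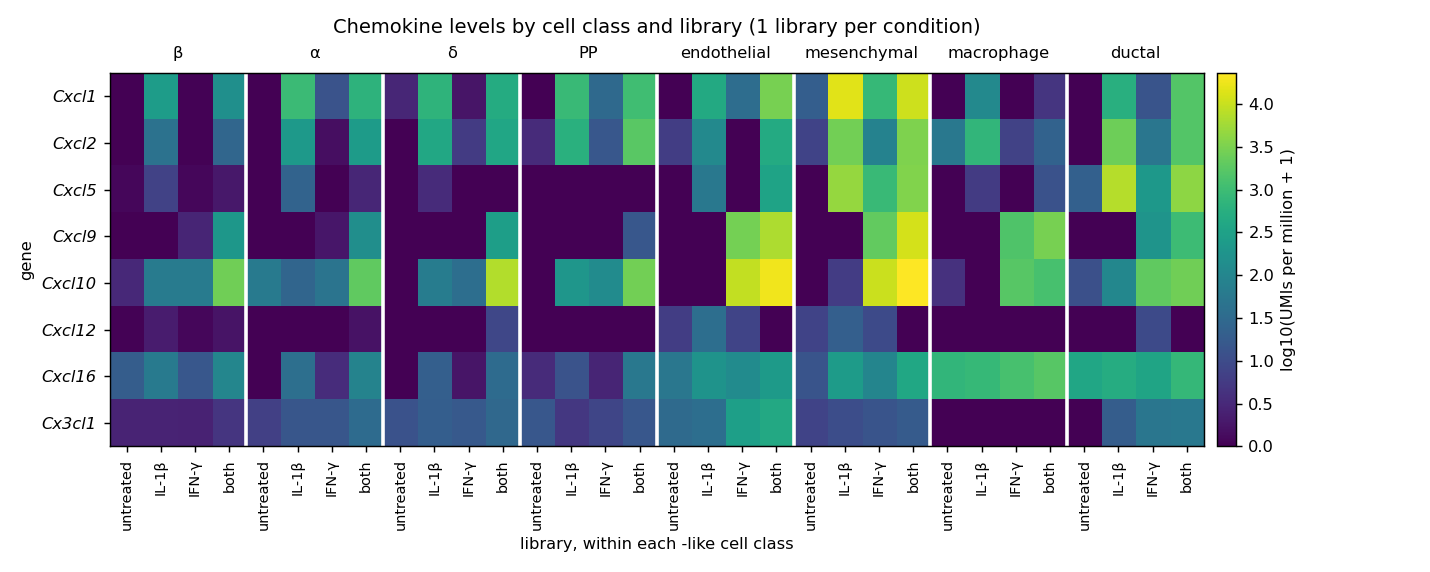
Level of each of the 8 chemokines (rows) in each -like cell class and library (columns), coloured by log10 of CPM plus 1. *Cxcl9* was at 0 in every class of the untreated and IL-1β libraries, and *Cxcl16* in macrophage-like cells was between 731 and 1712 CPM in all 4.

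The level of *Cxcl1* was highest in mesenchymal-like cells exposed to IL-1β. There it was at 19.3 CPM (3.97 to 56.3, 3 UMIs) untreated, 14549 CPM (14028 to 15086) after IL-1β, 822 CPM (710 to 946) after IFN-γ and 10827 CPM (10347 to 11324) after both. The IL-1β level was 755-fold (258 to 3662) the untreated one, and 32 of 34 cells after IL-1β and 21 of 22 after both held a UMI. The median mesenchymal-like cell of the IL-1β library carried 99.0 *Cxcl1* UMIs per 10000 of its UMIs, and the highest 873. After IFN-γ alone 6 of 28 cells held the gene, and 155 of the 194 UMIs came from 1 cell, without which the level was 177 CPM.

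Endocrine cells carried *Cxcl1* at lower levels and in a minority of cells. β-like cells had 0 UMIs untreated (a floor of 0.153 CPM), 258 CPM (248 to 268) after IL-1β, 0.0692 CPM after IFN-γ (1 UMI) and 150 CPM (144 to 156) after both. The rise was at least 1692-fold after IL-1β and at least 981-fold after both. α-like cells were at 0, 959, 12 and 664 CPM, δ-like cells at 1.97, 685, 0.790 and 475 CPM and PP-like cells at 0, 902, 30.3 and 1062 CPM, in the order untreated, IL-1β, IFN-γ and both. So all 4 endocrine classes were at 30.3 CPM or below without IL-1β, and α-, δ- and PP-like cells held more than β-like cells with it. Within the IL-1β library the α- and PP-like intervals overlapped, and those of δ-, ductal- and endothelial-like cells overlapped in turn.

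Between the IL-1β and the combined library *Cxcl1* was lower, though by less than 2-fold, in β-, α- and δ-like cells. Its direction in mesenchymal-like cells depended on how cells were named, and in endothelial-, PP- and ductal-like cells on single cells or on the filter. The ratio of the combined to the IL-1β library was 0.580 (0.549 to 0.613) in β-like, 0.692 (0.642 to 0.746) in α-like, 0.693 (0.601 to 0.797) in δ-like and 0.744 (0.702 to 0.789) in mesenchymal-like cells. The median gene of these comparisons was itself lower, at -0.34, -0.12, -0.17 and -0.11 on the log2 scale, against -0.79, -0.53, -0.53 and -0.43 for *Cxcl1*. With cells named one by one from their markers, without clusters, the mesenchymal-like ratio turned, to 0.22 on the log2 scale. In endothelial-like cells the levels were 0, 441, 34.8 and 2897 CPM and the ratio 6.57 (5.13 to 8.54), in a comparison where 11.1% of genes were at least 2-fold higher. There 317 of the 562 UMIs of the combined library and 42 of the 71 of the IL-1β library were in 1 cell each, and without those cells the levels were 1358 and 187 CPM. With no upper limit on genes per cell the endothelial-like levels were 3527 CPM after IL-1β and 2765 CPM after both, so that the direction turned. PP-like cells were at 902 CPM after IL-1β and 1062 CPM after both, but at 761 and 726 CPM without the cell with most *Cxcl1* in each library. Ductal-like cells were at 565 and 1544 CPM, where 81 of the 86 combined UMIs were in 1 cell, and at 289 and 114 CPM without the top cells. Macrophage-like cells were at 110 CPM (23 UMIs, 16 of them in 1 cell) after IL-1β and 3.78 CPM (1 UMI) after both.

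The share of β-like cells with a *Cxcl1* UMI was 27.7% (25.2 to 30.4) after IL-1β and 24.4% (22.1 to 26.9) after both. After thinning each cell to 4000 UMIs it was 22.8% and 16.4%, of 1139 and 1266 cells. In thinned α-like cells it was 45.6% and 41.2%, and in mesenchymal-like cells 81.8% of 22 and 94.1% of 17. Free RNA, estimated from the insulin UMIs of the class, would give 16.1 of the 2216 *Cxcl1* UMIs of α-like cells after IL-1β, but 17.6 of the 71 of endothelial-like cells. In macrophage-like cells of the combined library, at a median depth of 9547 UMIs against 12271 in β-like cells, 1 of 28 cells held a UMI. The 10% of β-like cells with most *Cxcl1* held 82.1% of the *Cxcl1* UMIs of that class after IL-1β.

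*Cxcl2*, the neighbour of *Cxcl1* with the same receptor, was also highest in mesenchymal-like cells after both cytokines, and it was below *Cxcl1* in some classes and above it in others. Mesenchymal-like cells were at 6.42, 2722, 84.8 and 3299 CPM in the order untreated, IL-1β, IFN-γ and both. β-like cells were at 0, 43.4, 0.0692 and 26.7 CPM, α-like at 0, 220, 0.429 and 249 CPM, δ-like at 0, 415, 4.74 and 383 CPM and PP-like at 2.43, 577, 14.3 and 1752 CPM. In the endocrine classes the *Cxcl2* level was below that of *Cxcl1* in both IL-1β libraries, except in PP-like cells after both cytokines, where it was above, and the intervals of the pair overlapped in δ-like cells after both. In those PP-like cells 262 of the 851 UMIs were in 1 cell. After IL-1β *Cxcl2* was above *Cxcl1* in macrophage-like cells (730 against 110 CPM) and in ductal-like cells (2558 against 565 CPM). After thinning, *Cxcl2* was found in 3.25% of β-like and 14.3% of α-like cells after IL-1β.

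Macrophage-like cells were the class in which *Cxcl2* was highest before treatment, at 54.5 CPM (31.8 to 87.3), or 23.2 CPM without 1 cell, although the interval overlapped that of mesenchymal-like cells. It was 730 CPM (618 to 855) there after IL-1β, 6.14 CPM (0.743 to 22.2) after IFN-γ and 22.7 CPM (8.32 to 49.3) after both. The combined library was 0.0311 (0.0112 to 0.0692) of the IL-1β library, from 6 against 152 UMIs, while mesenchymal-like cells were 1.21 (1.08 to 1.36) of theirs. Across all genes tested in macrophage-like cells, 6.81% were at least 2-fold lower in the combined than in the IL-1β library. *Cxcl1* and *Cxcl2* were the 2 of these chemokines that were lower, and without its top cell, which held 16 of 23 UMIs after IL-1β, *Cxcl1* had too few UMIs for a call. Ductal-like cells carried *Cxcl2* at 0, 2558, 51.3 and 1544 CPM, from 15 cells after IL-1β and 6 after both.

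*Cxcl5*, an epithelial neutrophil attractant, was highest in ductal- and mesenchymal-like cells and at most 23.8 CPM in the endocrine classes. Ductal-like cells were at 20.9 CPM (2 UMIs) untreated, 7404 CPM (6899 to 7936) after IL-1β, 209 CPM after IFN-γ and 4129 CPM (3612 to 4698) after both. The IL-1β level was 355-fold (97.9 to 2936) the untreated one, and 13 of 15 cells after IL-1β held a UMI. Of the 49 ductal UMIs after IFN-γ, 47 were in 1 cell. Mesenchymal-like cells were at 0, 4774, 907 and 3418 CPM, where 182 of the 214 UMIs after IFN-γ were in 1 of the 3 cells that held the gene.

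β-like cells carried *Cxcl5* at 0.203, 6.17, 0.208 and 0.94 CPM and α-like cells at 0, 23.8, 0 and 1.97 CPM. Both were lower after both cytokines than after IL-1β, at ratios of 0.152 (0.0805 to 0.270) and 0.0826 (0.0165 to 0.254), against 8.96% and 6.07% of genes that were at least 2-fold lower in those comparisons. Over the same step ductal- and mesenchymal-like cells were at ratios of 0.558 (0.479 to 0.647) and 0.716 (0.646 to 0.794). δ-like cells held 2 *Cxcl5* UMIs in all 4 libraries together and PP-like cells none.

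**Figure D3:**
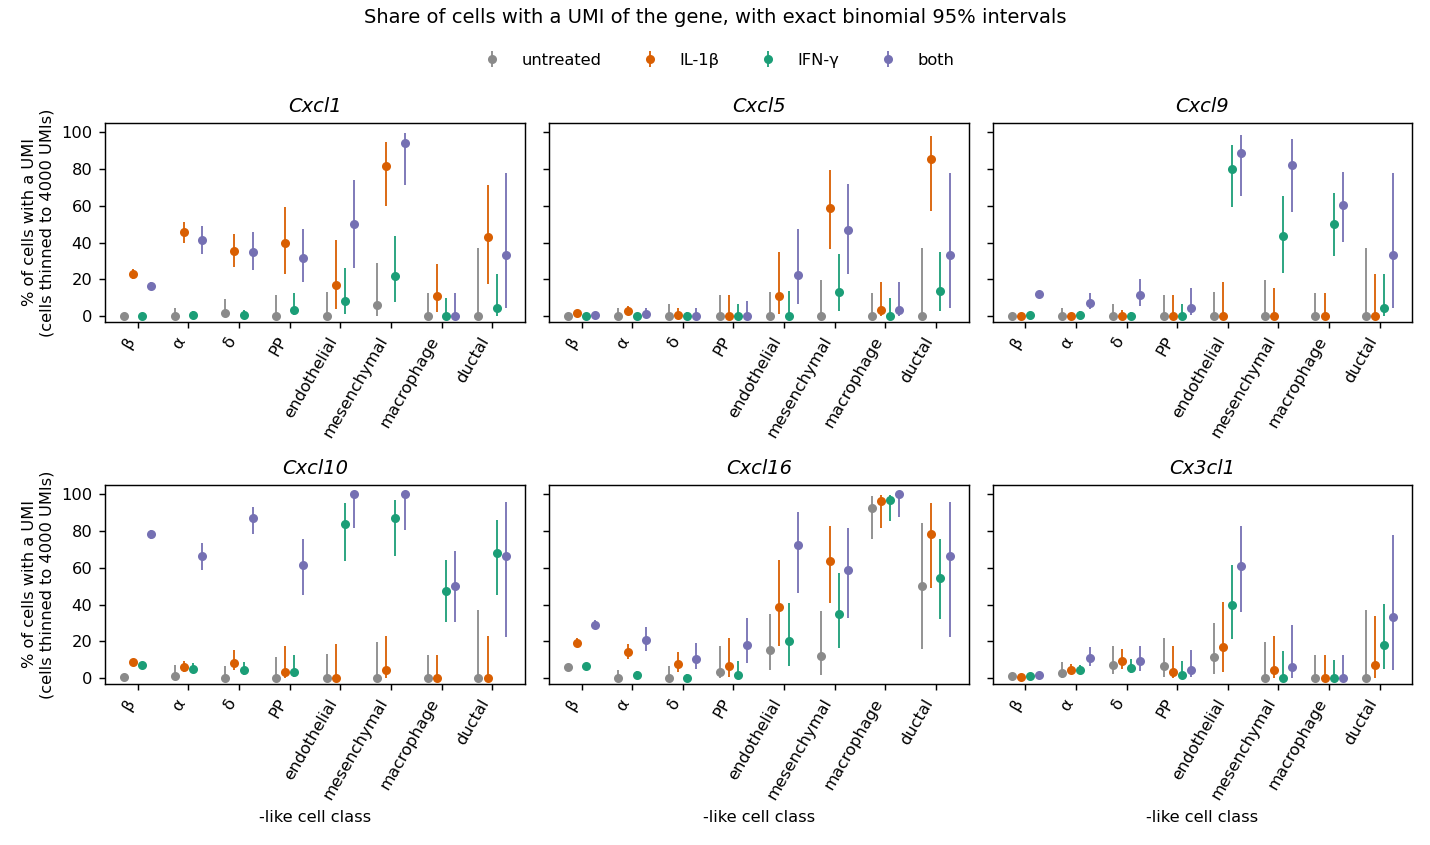
Share of cells with at least 1 UMI of 6 chemokines after thinning each cell to 4000 UMIs, by -like cell class and library, with exact binomial 95% intervals (vertical lines). *Cxcl5* was found mainly in mesenchymal- and ductal-like cells, and *Cxcl10* after IFN-γ alone in the non-endocrine classes far more often than in the endocrine ones.

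*Cxcl9*, a ligand of CXCR3, had no UMI in any of the 8 classes without IFN-γ. After IFN-γ alone it was at 2830 CPM (2638 to 3031) in endothelial-like, 2102 CPM (1921 to 2295) in mesenchymal-like and 1460 CPM (1332 to 1598) in macrophage-like cells. Ductal-like cells were at 184 CPM, with 36 of 43 UMIs in 1 cell. β-like cells held 1.80 CPM (1.18 to 2.64) from 26 UMIs, 15 of them in 1 cell, and 0.762 CPM without that cell. α-like cells held 2 UMIs, and δ- and PP-like cells none.

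After both cytokines *Cxcl9* was above its level after IFN-γ alone in all 8 classes, although PP-like cells held only 7 UMIs. Mesenchymal-like cells were at 12199 CPM (11689 to 12726), endothelial-like at 6815 CPM (6453 to 7193), macrophage-like at 2921 CPM (2718 to 3134) and ductal-like at 987 CPM (744 to 1285). The ratios to IFN-γ alone were 5.80 (5.26 to 6.41), 2.41 (2.21 to 2.63), 2.0 (1.78 to 2.25) and 5.37 (3.54 to 8.20), and 53 of the 55 ductal UMIs were in 1 cell. β-like cells were at 199 CPM (192 to 206), 111-fold (75.4 to 170) the level after IFN-γ alone. δ-like cells were at 277 CPM, α-like at 145 CPM and PP-like at 14.4 CPM, and in α-like cells 114 of the 221 UMIs were in 1 cell.

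The β-like cells that carried *Cxcl9* were few. After both cytokines 15.9% (14.0 to 18.1) held a UMI, 11.9% after thinning, and the 10% of cells with most *Cxcl9* held 96.4% of the UMIs. No free RNA share is given here, because its estimate uses insulin UMIs, which β-like cells make themselves, so single UMIs may be free RNA. Among thinned cells *Cxcl9* was found in 88.9% of endothelial-like, 82.4% of mesenchymal-like and 60.7% of macrophage-like cells. The order of the 8 classes in the combined library, from mesenchymal- through endothelial-, macrophage-, ductal-, δ-, β- and α- to PP-like, had no overlap between neighbouring intervals, but the ductal-like place rests on 1 cell, without which that class was at 40.4 CPM, below the δ-, β- and α-like levels. Those of δ- and α-like cells without their top cells were 169 and 70.8 CPM, so that the order of δ- and β-like cells (194 CPM) also turned.

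*Cxcl10*, the other CXCR3 ligand measured, reached the highest level of the 8 genes. In mesenchymal-like cells it was at 0 UMIs untreated, 1 UMI after IL-1β, 10505 CPM (10096 to 10927) after IFN-γ and 23089 CPM (22385 to 23809) after both. Endothelial-like cells had no UMI in the first pair of libraries and were at 9289 CPM (8940 to 9649) and 18693 CPM (18089 to 19311) in the other pair. The step from IFN-γ alone to both cytokines was therefore 2.20-fold (2.09 to 2.31) and 2.01-fold (1.91 to 2.12), where 7.69% and 4.23% of genes were at least 2-fold higher. The endothelial-like step was below 2-fold with a mitochondrial limit of 20% (0.84 on the log2 scale), with clustering on all variable genes (0.87) and with cells named one by one (0.996). All 22 mesenchymal-like and 21 of 22 endothelial-like cells of the combined library held the gene.

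The endocrine classes had little *Cxcl10* with either cytokine alone and much after both. β-like cells were at 2.19 CPM (1.58 to 2.94), 63.2 CPM (58.4 to 68.2), 64.2 CPM (60.1 to 68.5) and 2657 CPM (2632 to 2683) in the order untreated, IL-1β, IFN-γ and both. The combined level was 42.1-fold (38.9 to 45.5) that after IL-1β and 41.4-fold (38.8 to 44.2) that after IFN-γ. δ-like cells were at 0, 66.3, 36.3 and 7130 CPM (6929 to 7336), PP-like at 0, 196, 125 and 2709 CPM and α-like at 58.9, 25.1, 47.1 and 1963 CPM. The combined level was 196-fold (147 to 268) that of IFN-γ alone in δ-like, 21.7-fold (17.1 to 28.0) in PP-like and 41.6-fold (34.4 to 50.8) in α-like cells. Across genes, 6.12% in β-like, 8.68% in δ-like, 8.23% in PP-like and 6.22% in α-like cells were at least 2-fold higher in that comparison.

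In PP-like cells 43 of the 49 *Cxcl10* UMIs after IL-1β and 38 of the 70 after IFN-γ were in 1 cell each, without which the levels were 24.6 and 59.1 CPM. All 51 *Cxcl10* UMIs of the untreated α-like class were in 1 cell, and so were 32 of the 43 in untreated β-like cells. Without that cell untreated α-like cells were at 0, so that no decrease after IL-1β is read from them. In the combined library δ-like cells stood above PP-, β- and ductal-like cells, whose intervals overlapped one another, and macrophage-like cells were lowest. Macrophage-like cells were at 3.21 (1 UMI), 0, 1727 and 1220 CPM, so that after both cytokines they were at 0.706 (0.614 to 0.811) of the level after IFN-γ alone. Without the cell that held 188 of the 563 UMIs after IFN-γ and the one that held 131 of the 323 after both, the levels were 1182 and 764 CPM. Ductal-like cells were at 10.4, 102, 1957 and 2585 CPM, where the IL-1β value rests on 11 UMIs of 1 cell.

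The share of β-like cells with a *Cxcl10* UMI was 0.443% untreated, 13.3% after IL-1β, 13.7% after IFN-γ and 84.3% (82.2 to 86.2) after both, and after thinning 0.358%, 8.69%, 7.19% and 78.4%. In thinned cells of the combined library it was 87.2% of 86 δ-like, 66.7% of 165 α-like and 61.4% of 44 PP-like cells, and 14 of 28 macrophage-like cells held a UMI. Free RNA would give 24.2 of the 2996 UMIs in α-like and 3.58 of the 323 in macrophage-like cells. In single cells of the combined library the median was 207 UMIs per 10000 in mesenchymal-like, 161 in endothelial-like, 47.1 in δ-like, 14.8 in β-like, 4.71 in α-like and 1.67 in macrophage-like cells. The highest β-like cell carried 275 per 10000, above the median mesenchymal-like cell.

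**Figure D4:**
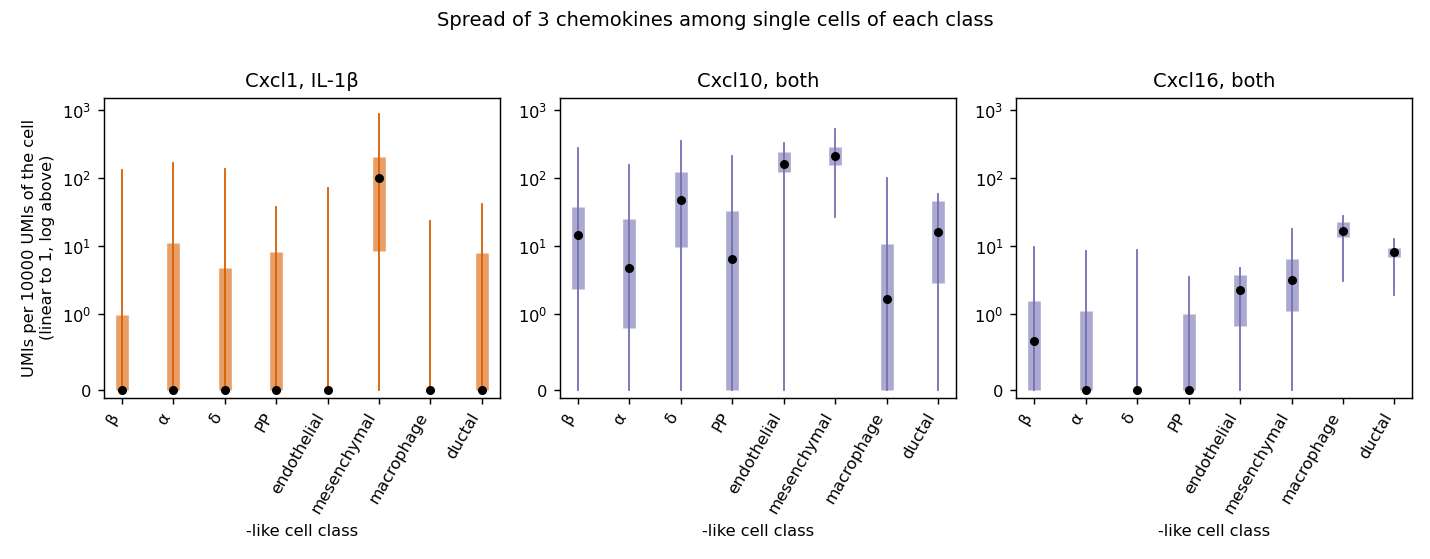
UMIs of *Cxcl1* (IL-1β library), *Cxcl10* and *Cxcl16* (combined library) per 10000 UMIs of each cell, by -like cell class, on an axis that is linear to 1 and logarithmic above. Points are medians, thick bars run from the first to the third quartile and thin lines from the lowest to the highest cell. Only mesenchymal-like cells have a *Cxcl1* median above 0, and macrophage-like cells have the highest *Cxcl16* and the lowest *Cxcl10* median.

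A cluster of β-like cells with high heat shock transcripts held less *Cxcl1* than other β-like cells in both libraries with IL-1β, while its *Cxcl10* was lower in the combined and higher in the IL-1β library. In the combined library its 81 cells were at 477 CPM *Cxcl10*, with a UMI in 50.6% of them, against 2777 CPM and 86.6% of the 1205 other β-like cells. *Cxcl1* was at 27.7 against 156 CPM and *Cxcl9* at 37.4 against 208 CPM in the same cells, and the chaperone *Hspa1a* at 2221 against 179 CPM. After IL-1β the same cluster held *Cxcl10* at 89.6 CPM (73.4 to 108) in 21.97% of 173 cells against 59.8 CPM (54.9 to 65.0) in 11.8% of the 1031 others, and *Cxcl1* at 36.3 against 287 CPM. After IFN-γ its *Cxcl10* was at 48.9 CPM (36.8 to 63.6) against 65.5 CPM (61.2 to 70.0), with intervals that overlap, and its *Cxcl9* at 13.3 against 0.825 CPM, from 15 UMIs of 1 cell.

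*Cxcl12*, the ligand of CXCR4, was near the limit of detection in these cells. Its highest count in any class of a library was 12 UMIs, in 8 β-like cells after IL-1β, or 1.16 CPM (0.598 to 2.02). The highest level was 37.2 CPM (13.7 to 81.1) from 6 UMIs in endothelial-like cells after IL-1β. Mesenchymal-like cells, which are a usual source of this chemokine in other tissues, held 1, 4, 2 and 0 UMIs in the 4 libraries. The count of 0 among 22 cells has a Poisson upper limit of 20.9 CPM. In β-like cells the counts were 1, 12, 3 and 11 UMIs, and the ratios to untreated were 22.8 (3.37 to 973) after IL-1β and 13.6 (1.97 to 583) after both, with intervals above 1 but fewer UMIs than a call required. In endothelial- and mesenchymal-like cells the ratios of IL-1β to untreated, 7.12 (0.863 to 327) and 3.09 (0.305 to 152), had intervals that include 1.

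*Cxcl16*, which is made as a membrane protein and also acts as a scavenger receptor, was present before treatment, at its highest levels in macrophage- and ductal-like cells. In macrophage-like cells it was at 731 CPM (639 to 832) untreated, 835 CPM (716 to 969) after IL-1β, 1227 CPM (1110 to 1354) after IFN-γ and 1712 CPM (1558 to 1877) after both. The combined level was 2.34-fold (1.99 to 2.76) the untreated one, and 26 of 27, 36 of 36, 38 of 38 and 28 of 28 cells held a UMI. Ductal-like cells came next in every library, at 376, 510, 350 and 808 CPM. Mesenchymal-like cells were at 12.8, 243, 97.5 and 402 CPM and endothelial-like cells at 52.3, 174, 125 and 237 CPM.

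In β-like cells *Cxcl16* was at 18.4 CPM (16.5 to 20.3), 61.2 CPM (56.5 to 66.1), 14.0 CPM (12.2 to 16.1) and 101 CPM (96.0 to 106). It was 3.33-fold (2.92 to 3.80) the untreated level after IL-1β, 0.765 (0.641 to 0.912) of it after IFN-γ and 5.50-fold (4.90 to 6.18) after both. After thinning, 6.27%, 19.2%, 6.40% and 29.1% of β-like cells held a UMI. α-like cells were at 0, 38.9, 2.57 and 87.8 CPM, δ-like at 0, 20.01, 0.790 and 33.2 CPM and PP-like at 2.43, 12, 1.78 and 55.6 CPM. The endocrine order after both cytokines, β-, α-, PP- and δ-like, had overlapping intervals between each pair of neighbours.

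*Cx3cl1* was higher after IFN-γ in endothelial-like cells, which stood apart from the other classes only in the 2 libraries with that cytokine. Endothelial-like cells were at 31.4 CPM (11.5 to 68.4) untreated, 37.2 CPM (13.7 to 81.1) after IL-1β, 292 CPM (233 to 362) after IFN-γ and 428 CPM (341 to 530) after both. These were 9.31-fold (4.10 to 26.1) and 13.6-fold (6.00 to 38.2) the untreated level in the last 2 libraries, and the ratio of IL-1β to untreated was 1.19 (0.317 to 4.44). A UMI was found in 6 of 29, 5 of 35, 27 of 45 and 20 of 22 cells. Macrophage-like cells held no *Cx3cl1* UMI in any of the 4 libraries, where a count of 0 has a Poisson upper limit of 17.7 CPM in the IL-1β library, the shallowest.

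Endocrine cells carried a little *Cx3cl1* before and after treatment. α-like cells were at 5.77, 13.8, 13.7 and 32.1 CPM, δ-like at 11.8, 18.8, 15.8 and 28.6 CPM, β-like at 1.68, 1.74, 1.66 and 3.70 CPM and PP-like at 14.6, 4.01, 7.13 and 14.4 CPM, from 7 UMIs or fewer in a library. The ratios to untreated in PP-like cells were 0.275 (0.00597 to 2.26), 0.489 (0.101 to 2.06) and 0.988 (0.284 to 3.56). In α-like cells the ratios of 2.40 (0.928 to 7.89) after IL-1β and 2.38 (0.919 to 7.81) after IFN-γ, and in δ-like cells that of 2.43 (0.931 to 7.42) after both, were past 2-fold with intervals that include 1. In β-like cells the combined level was 2.20-fold (1.42 to 3.48) and in α-like cells 5.56-fold (2.23 to 17.9) the untreated one. The β-like ratio was below 2-fold after thinning, at 0.40 on the log2 scale, and with hormone genes left out of the totals, at 0.94. Ductal-like cells were at 0, 18.5, 51.3 and 53.9 CPM and mesenchymal-like cells at 6.42, 9.91, 12.7 and 17.0 CPM, each from 12 UMIs or fewer in a library. The endothelial-like interval stood apart from that of the next class in the 2 libraries with IFN-γ and overlapped it in the other two, and nearly all other neighbouring intervals overlapped.

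Because the classes differ in number, a low level in many cells can outweigh a high level in few. After IFN-γ alone the endothelial-, mesenchymal-, macrophage- and ductal-like cells were 6.27% of the cells and held 5.25% of the UMIs, but 97.3% of the *Cxcl9* and 81.8% of the *Cxcl10* UMIs. After both cytokines they were 4.31% of the cells and held 53.8% of the *Cxcl9* and 13.2% of the *Cxcl10* UMIs, and β-like cells held 39.7% and 68.3%. *Cxcl5* stayed with the non-endocrine classes, at 90.2% after IL-1β and 97.8% after both. Of the *Cxcl1* UMIs after IL-1β, 31.1% were in mesenchymal-like, 28.3% in β-like and 23.5% in α-like cells. After both cytokines the shares were 26.9%, 33.6% and 14.3% in the same order of classes. Macrophage-like cells held 51.2% of the *Cxcl16* UMIs after IFN-γ and 18.3% after both, when β-like cells held 65.1%. Endothelial-like cells held 43.3% and 34.9% of the *Cx3cl1* UMIs in those libraries, from 2.12% and 1.22% of the cells. In the untreated and IL-1β libraries endothelial-like cells held 10% and 7.41% of them. The largest shares there were 55% in β-like cells untreated and 39.5% in α-like cells after IL-1β.

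**Figure D5:**
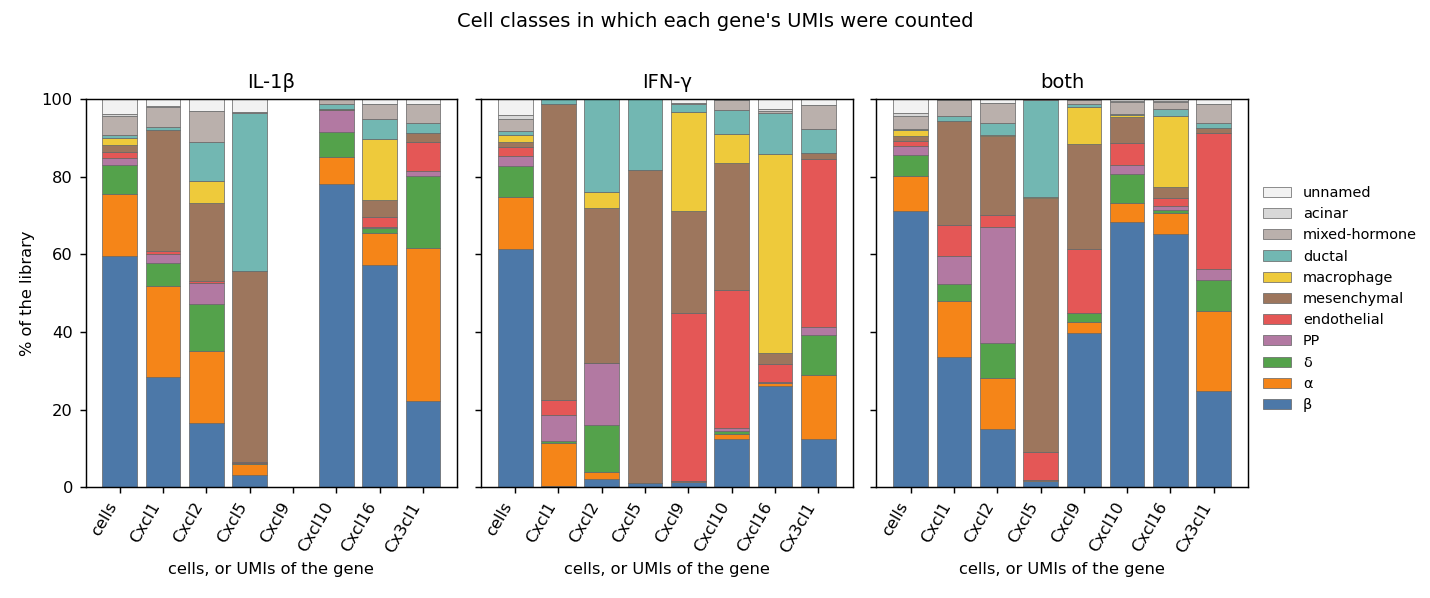
Percentage of cells (first bar of each panel) and of the UMIs of 7 chemokines counted in each cell class, in the IL-1β, IFN-γ and combined libraries. After IFN-γ alone most *Cxcl9* and *Cxcl10* UMIs were in non-endocrine classes, and after both cytokines 68.3% of the *Cxcl10* UMIs were in β-like cells. *Cxcl9* has no bar after IL-1β because it had no UMI.

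The mesenchymal-like class was also divided by whether a cell held more UMIs of the fibroblast-type markers *Col1a1*, *Col1a2*, *Col3a1*, *Dcn* and *Lum* or of the mural-type markers *Rgs5*, *Cspg4*, *Acta2* and *Des*. In the combined library, with 11 cells on each side, *Cxcl5* was at 5702 CPM in the first, held by 9 cells, and at 28.2 CPM (2 UMIs in 1 cell) in the second. *Cxcl10* was at 20865 CPM in the first and 26391 CPM in the second, and *Cxcl9* at 9298 and 16505 CPM. After IL-1β, 17 cells on each side carried *Cxcl1* at 10703 and 22860 CPM and *Cxcl5* at 5047 and 4183 CPM. Both kinds of cell therefore carried *Cxcl1*, and these values rest on few cells. The first and second kinds were 3 and 17 cells untreated and 17 and 11 after IFN-γ, so the make-up of the class differed between libraries. After IFN-γ *Cxcl10* was at 7979 CPM in the first and 16054 CPM in the second. The part of this make-up in the ratios of the class was not tested.

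After IL-1β *Cxcl2* was found more often in α- and β-like cells with *Cxcl1* than in those without. In thinned α-like cells after IL-1β, 35 of the 140 cells with *Cxcl1* held *Cxcl2* (95% interval 18.1% to 33.0%), against 9 of the 167 without (2.49% to 9.98%). In β-like cells the shares were 9.62% (6.32 to 13.9) of 260 and 1.37% (0.707 to 2.37) of 879. Those of δ-like cells were 31.0% (17.6 to 47.1) of 42 and 9.21% (3.78 to 18.1) of 76, with intervals that overlap. The intervals of mesenchymal-, endothelial- and macrophage-like cells after IL-1β also overlapped. After both cytokines, 13.8% (11.7 to 16.1) of the 992 thinned β-like cells with *Cxcl10* held *Cxcl9*, against 5.11% (2.82 to 8.42) of the 274 without. In α-like cells of that library the shares were alike, at 7.27% (3.19 to 13.8) of 110 and 7.27% (2.02 to 17.6) of 55, and in macrophage-like cells they were 64.3% (35.1 to 87.2) of 14 and 57.1% (28.9 to 82.3) of 14. *Cxcl1* was found in 18.3% (16.0 to 20.9) and 9.12% (5.99 to 13.2) of the β-like cells with and without *Cxcl10*. *Cxcl16* was found in 30.1% (27.3 to 33.1) and 25.2% (20.2 to 30.8) of them, with intervals that overlap.

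Receptors for these ligands were at or near 0 in endocrine cells. *Cxcr1*, *Cxcr3* and *Cxcr6* had no UMI in α-, δ- and PP-like cells in any library. *Cxcr4*, the receptor of *Cxcl12*, was at 345 CPM in untreated endothelial-like cells and 329, 101 and 299 CPM after IL-1β, IFN-γ and both. *Cx3cr1*, the receptor of *Cx3cl1*, was at 157, 43.2, 36.8 and 22.7 CPM in macrophage-like cells, and the combined level was 0.144 (0.0505 to 0.337) of the untreated one. The scavenging receptor *Ackr3* was at 68.0, 74.5, 17.4 and 51.6 CPM in endothelial-like cells.

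Among the other CXC ligands, *Cxcl3* was the most abundant outside the members. It was at 0, 3237, 1021 and 6519 CPM in mesenchymal-like cells, at 0, 12.4, 20.9 and 3031 CPM in endothelial-like cells and at 164, 773, 0 and 0 CPM in macrophage-like cells. *Cxcl3* therefore shared with *Cxcl2* the presence in macrophage-like cells of the untreated and IL-1β libraries and a lower level or none after IFN-γ. *Pf4*, a platelet and macrophage chemokine, was at 462, 2645, 1000 and 729 CPM in macrophage-like cells.

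Among regulators of chemokine transcription or messenger decay, *Zc3h12a*, whose product degrades inflammatory messengers, was at 44.6 CPM in β-like cells after IL-1β, 87.7-fold (47.2 to 184) the untreated level. *Nfkbia*, an inhibitor of NF-κB that is also its target, was at 486 CPM after IL-1β and 627 CPM after both, against 49.0 CPM untreated. *Irf1*, an interferon-induced transcription factor, was at 19.9, 40.5, 207 and 334 CPM in the order untreated, IL-1β, IFN-γ and both.

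The receptor of IL-1, *Il1r1*, was at 241, 259, 225 and 94.97 CPM in β-like cells and at 252, 449, 347 and 228 CPM in α-like cells. In macrophage-like cells it had 0 UMIs in 3 of the 4 libraries and was at 6.14 CPM after IFN-γ. The chain *Ifngr2* of the IFN-γ receptor was at 5.77, 77.9, 8.14 and 87.1 CPM in α-like cells, and the chain *Ifngr1* at 15.01, 10.8, 10.7 and 7.21 CPM. In β-like cells the receptor genes *Il1rap*, *Il1r2*, *Ifngr1* and *Ifngr2* were past the limit for higher genes after IL-1β and after both. That compares with 17.6% and 11.8% of genes. *Il1rap* and *Il1r2* were also past it after IFN-γ, against 6.61% of genes. *Il1r1* was past the limit for lower genes there after both, against 12.9% of genes. The 3 proteases that release or trim chemokines are given for α-like cells first, and no difference between them was tested. *Adam17* was at 4.62, 26.8, 14.6 and 38.0 CPM and was past the limit for higher genes in all 3 comparisons with untreated, against 9.29%, 6.51% and 9.83% of genes, from 4 untreated UMIs. *Dpp4*, whose product trims chemokines at the amino terminus, was at 34.6, 11.7, 13.7 and 17.0 CPM and was past the limit for lower genes in all 3, against 9.49%, 2.28% and 13.1% of genes. *Adam10* was at 31.2, 48.5, 39.0 and 48.5 CPM and passed neither limit. In β-like cells *Adam10* and *Adam17* were past the limit for higher genes after IL-1β and after both, against 17.6% and 11.8% of genes. *Dpp4* was past that for lower genes there only after both, against 12.9% of genes.

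Across the 32 combinations of 8 classes and 4 libraries, the genes whose log2(CPM + 1) was most like that of each member are given as a description, since combinations from 1 library share its depth. For *Cxcl1* they were *Ccl2* (Pearson r = 0.85), *Zc3h12a* (0.83) and *Sod2* (0.82), and for *Cxcl2* they were *Zc3h12a* (0.85), *Stx11* (0.79) and *Tnip1* (0.77). For *Cxcl9* they were *Olfr56* (0.95), *Batf2* (0.93) and *Slfn9* (0.90), and for *Cxcl10* *Gbp5* (0.90), *Psme2* (0.89) and *Olfr56* (0.89). *Cxcl5* was most like *1600012H06Rik* (0.85), *Pi4k2b* (0.81) and *Rps2* (0.78). *Cxcl16* was most like *Casp4* (0.90), *Tnfaip8* (0.89) and *Car13* (0.87), and *Cx3cl1* like *Trim56* (0.81), *Tanc1* (0.81) and *Cdc42ep4* (0.80). Among the members, *Cxcl1* and *Cxcl2* (0.86) and *Cxcl9* and *Cxcl10* (0.86) were the most alike pairs, and the next, *Cxcl2* and *Cxcl5*, was at 0.62. The genes named depend on the measure for some members. With log2(CPM + 10) none of the 3 genes named for *Cx3cl1* and 1 of the 3 for *Cxcl16* remained, and with Spearman correlation none for *Cx3cl1* and 1 each for *Cxcl16* and *Cxcl5* did, while at least 2 of 3 remained for the others.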

How the data were processed

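Libraries were made with a 10x Genomics 3′ kit, and the authors deposited filtered gene by barcode matrices of raw UMI counts made with Cell Ranger on mm10 (header software version 3.0.0), with no normalization. The deposited counts were filtered as in the study's methods (200 to 4000 genes, at most 12% mitochondrial UMIs), which left 7471 of 12571 barcodes. The study states a larger number of cells after the same limits, and the cause of the difference is not known. Cells were clustered with scanpy 1.11.5 and igraph 0.11.9 (Louvain, resolution 0.8, 30 components, 20 neighbours) on 4595 variable genes. These held no chemokine gene and no gene of several families of cytokine-response genes, but other cytokine-response genes were not left out. The clustering gave 18 clusters and, for cells low in hormone UMIs, a further 7. Endocrine cells needed at least 1% of UMIs from the leading hormone and 3 times the next; *Ppy* was not counted as a second hormone in *Sst*-led cells, a rule set after the hormone shares were seen. Of the named endocrine and mixed-hormone cells, 6652 in all, 277 had a leading hormone at 2 to 4 times the next. The 242 mixed-hormone, 63 acinar-like and 339 unnamed cells were left out of the classes. Cells were not freed of doublets beyond the gene limit. UMIs were summed per class and library. Intervals of ratios are exact conditional binomial ones; with a count of 0 a fold is a lower bound from a floor of 3 UMIs. The code for ratios was tested on simulated data. The members, lists and rules were chosen with earlier results of these data known. The genes named were the members, the chemokine-system and cytokine-receptor lists and, for each member with at least 200 UMIs, the 3 genes most like it; 1 gene of the chemokine-system list is not reported here, so no count over the regulators is given. Intervals came from scipy 1.17.1 and tables from pandas 2.3.3 in Python 3.11.15. The closing section gives the alternatives tried: filters, thinning, clustering, naming, doublets, totals and thresholds.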

Additional observations from a re-analysis of the deposited data

Results flagged for a closer look

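The ratio of *Cxcl10* after IL-1β to untreated was 0.426 in α-like cells and above 1 in β-, δ- and PP-like cells, with 28.9 in β-like cells. The difference between the classes was not tested. All 51 untreated α-like UMIs were in 1 cell, and the ratio was above 1 without that cell and after thinning, so no class difference in direction is read from it.

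Chemokines were also counted in cells that no comparison used. In the combined library the mixed-hormone cells, 60 in number, carried *Cxcl1* at 543 CPM, *Cxcl2* at 284 CPM, *Cxcl9* at 173 CPM, *Cxcl10* at 3827 CPM and *Cxcl16* at 84.5 CPM. Acinar-like cells of that library carried *Cxcl10* at 667 CPM, from 4 of 14 cells. Unnamed cells, which had a median of 1478 UMIs, carried *Cxcl1* at 1234 CPM, *Cxcl2* at 556 CPM and *Cxcl5* at 461 CPM with IL-1β, *Cxcl9* at 102.7 CPM and *Cxcl16* at 108 CPM with IFN-γ, and *Cxcl10* at 1858 CPM with both. Of these, 143 of 182 *Cxcl1*, 63 of 82 *Cxcl2* and 15 of 20 *Cxcl9* UMIs were in 1 cell each, and without it the levels were 268, 131 and 26.3 CPM. Without the cell with most UMIs the others were at 262 CPM (*Cxcl5*), 73.7 CPM (*Cxcl16*) and 1269 CPM (*Cxcl10*), and *Cxcl10* in acinar-like cells at 375 CPM.

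Barcodes removed for more than 4000 genes carried them too, above the untreated removed barcodes. In 146 such barcodes of the IL-1β library *Cxcl1* was at 994 CPM, *Cxcl2* at 631 CPM and *Cxcl5* at 1384 CPM, against 0.652, 0.367 and 3.63 CPM untreated. In 222 of the combined library *Cxcl9* was at 628 CPM, *Cxcl10* at 3244 CPM, *Cxcl16* at 136 CPM and *Cx3cl1* at 27.9 CPM, against 0, 4.198, 27.4 and 3.83 CPM untreated. Barcodes removed for mitochondrial UMIs carried *Cxcl1* at 142 CPM and *Cxcl5* at 152 CPM with IL-1β. With both cytokines they carried *Cxcl2* at 131 CPM, *Cxcl9* at 76.1 CPM, *Cxcl10* at 1459 CPM and *Cxcl16* at 78.5 CPM.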

How the results depend on the processing

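Each condition is 1 library, so no replicate could be left out. No paired analysis was possible because no condition has a replicate. Of the 94 ratios of a treated to the untreated library past 2-fold, recomputed under 11 alternatives, 36 of 1034 values had too few UMIs for a call, 13 of them after thinning to 4000 UMIs and 14 without the cell with most UMIs of the gene, an alternative chosen after seeing the data. Of the other 998, 996 kept their sign and 989 stayed past 2-fold. The 2 that turned were *Cxcl10* in α-like cells with IL-1β, at a log2 ratio of 0.28 after thinning and 2.62 without that cell. The 67 ratios past 2-fold of the combined library to 1 cytokine, recomputed after seeing the data, gave 721 values, of which 717 kept their sign and 699 stayed past 2-fold, and 16 more had too few UMIs. The 4 that turned were against IL-1β. With no upper limit on genes the log2 ratio was -0.35 for *Cxcl1* and -1.83 for *Cxcl2* in endothelial-like cells and -0.29 for *Cxcl1* in ductal-like cells, and without the top cell it was -1.34 for *Cxcl1* in ductal-like cells. Sizes moved more than signs. Of the ratios to untreated, 59 of 104 with no upper limit on genes, 60 of 89 after thinning and 41 of 89 without the top cell moved by more than their counting intervals (bounds by over 0.1 on the log2 scale), besides those that turned. Of the 256 levels, 104 moved so without the top cell, 57 after thinning and 48 with no upper limit on genes. Counts of higher genes moved by over 1.5 times as follows. After thinning, IFN-γ gave 1 in β-like, 1 in α-like and 0 in δ-like cells, and IL-1β gave 1 in endothelial-like cells. The 2 α-like genes counted after IFN-γ without thinning, *Cxcl1* and *Cx3cl1*, had too few UMIs after it, so the 1 is another gene. Without the cell with most UMIs of the gene, IFN-γ gave 1 in β-like, 0 in δ-like and 1 in ductal-like cells, and IL-1β gave 1 in macrophage-like cells. With no upper limit on genes, IFN-γ gave 2 in PP-like and 6 in ductal-like cells, and IL-1β gave 4 in endothelial-like cells. In endothelial-like cells with IL-1β a mitochondrial limit of 20%, clustering on all variable genes and a fold limit of 4 each gave 1. A fold limit of 4 gave 0 in α-like cells with IFN-γ, and a minimum of 10 UMIs gave 2 in PP-like cells with IFN-γ. The cause was not tested. Scrublet called 106 of 7471 cells (1.42%) doublets, and leaving them out moved none of the 24 counts by over 1.5 times. Depth limits the ductal-like values most, where the floor was 53.9 CPM in the combined library.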
